A study of Arabidopsis thaliana with 10 samples.

Results

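Transcript levels of 4 Arabidopsis thaliana genes of zinc and manganese handling were followed across 10 root arrays. The genes are MTP8 (AT3G58060), ZIP9 (AT4G33020), BZIP19 (AT4G35040) and BZIP23 (AT2G16770), named by locus. The platform annotation lists MTP8 by locus only. Each has 1 probe set that the platform annotation pairs with that gene alone, so all 4 were measured, of 16505 genes with such a probe set. The arrays covered 4 groups of roots. Plants of the mutant bts-3 without iron (-Fe) and with iron (+Fe) gave 3 arrays each, and wild-type plants (WT, Col) without and with iron gave 2 arrays each. Every plant had 2 weeks on B5 medium and then 3 days (72 h) on its test medium, and the labels call the arrays of a group biological replicates. The labels do not say how many plants an array pooled. The gene of the mutant, BRUTUS (BTS), encodes a ubiquitin ligase of the E3 class that holds back iron-deficiency signalling. The labels do not state the lesion. No probe set is annotated to BTS in the table used, and its transcript therefore gives no check of the genotype labels.

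MTP8 is known as a vacuolar transporter of the cation diffusion facilitator family that stores manganese. In iron-starved roots, broad-range uptake through IRT1 also brings in manganese and zinc, and MTP8 is induced there together with the uptake genes under the regulator FIT. ZIP9 belongs to the ZIP family of zinc and iron transporters and is best known as a gene induced by zinc shortage. BZIP19 and BZIP23 are basic leucine zipper factors of group F, which bind zinc themselves and switch on ZIP genes, ZIP9 among them, when zinc is scarce.

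The values are log2 expression after RMA, which corrects background, equalises the distributions of the arrays and combines the probes belonging to each probe set. A step of 1 is a 2-fold step in signal, levels of different probe sets cannot be ranked against each other, and the number of arrays limits the precision. Array medians lay between 5.274 and 5.453 and lower quartiles between 2.92 and 3.26. The mean correlation of an array with the others of its group ran from 0.969 (bts-3 -Fe replicate 1) to 0.991 across genes. The root marker PYK10 lay between 12.62 and 13.19 on all 10 arrays. The mean of EXPA7 and EXPA18, the 2 measured of 3 root hair markers, was 8.68, 8.52 and 8.06 on bts-3 -Fe replicates 1, 2 and 3, 8.74, 8.57 and 7.47 on bts-3 +Fe, 8.98 and 9.03 on WT -Fe, and 8.97 and 9.15 on WT +Fe. On this mean all 6 bts-3 arrays thus lay below all 4 WT arrays, a pattern whose share of all probe sets is not given here. For EXPA18 alone, bts-3 +Fe replicate 1 (9.14) was above WT -Fe replicate 1 (9.13). Averaged over both media, bts-3 against WT was -0.63 (SE 0.20) for EXPA7 and -0.75 (SE 0.32) for EXPA18, with limma adjusted p of 0.253 and 0.388, and the part of this marker difference in the genotype comparisons below was not tested. The mean of RCA and LHCB4.1, the 2 measured of 5 leaf markers, was 6.50, 7.19 and 7.53 on bts-3 -Fe replicates 1, 2 and 3, 7.40 to 7.48 on bts-3 +Fe, 6.41 to 6.81 on WT -Fe and 7.55 to 8.03 on WT +Fe. In RNA from whole roots, fewer cells of a type and less RNA per cell cannot be told apart.

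Groups were compared with limma on all 10 arrays, with calls made at an adjusted p (Benjamini-Hochberg, over 17481 probe sets) below 0.05. None of the 4 genes was called in any of the 7 comparisons, and few probe sets were. The called share of all probe sets was 0.0286% for WT -Fe against WT +Fe, 0.0229% for bts-3 -Fe against bts-3 +Fe, 0.269% for bts-3 against WT on +Fe and 0% on -Fe. It was 0.00572% for the difference of the iron responses, 0.16% for bts-3 against WT averaged over both media and 0.0915% for -Fe against +Fe averaged over both genotypes. At an unadjusted limma p under 0.05, 3 of the 4 genes passed for WT -Fe against WT +Fe, beside 8.37% of all probe sets, and 0 of 4 passed in bts-3, beside 4.96%. For bts-3 against WT, 2 of 4 passed on +Fe (8.93% of all) and 3 of 4 on -Fe (6.65%). The difference of the iron responses passed for 2 of 4 (4.46%), the averaged genotype comparison for 1 of 4 (11.8%) and the averaged iron comparison for 3 of 4 (9.54%). The 4 genes were chosen with earlier results of these data known, so these counts give no test of them as a set.

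The labels do not say that a replicate number marks a shared batch. By a check on all genes given with the processing, same-numbered -Fe and +Fe arrays of bts-3 deviated together. A fit with the replicate number as a block in bts-3 was therefore set beside the plain one wherever it changed a call. It takes the differences between bts-3 replicates out of the error, which suits the comparison of media within bts-3. For bts-3 against WT it leaves those differences uncounted, so its p-values there are too small. The WT arrays were not paired but share this error. Blocked p-values can therefore also be too small for the WT response, the difference of responses and averaged iron.

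MTP8 had the widest range of the 4 genes. WT -Fe roots read 10.01 and 10.47, against 4.59 and 4.50 in WT +Fe roots. The groups did not overlap, as for 23.2% of all probe sets in this direction, and their SDs were 0.32 on WT -Fe and 0.06 on WT +Fe. The log2 fold change was 5.70 (SE 1.02, 95% interval 3.44 to 7.96), a 52-fold difference and the 4th highest of 17481. Its limma adjusted p was 0.113 in the plain fit and 0.000351 with the bts-3 block, where 0.606% of probe sets were called. MTP8 in WT was thus called by the blocked fit and not by the plain one. The mutant arrays, which share the error estimate, had an SD of 2.00 without iron and 1.14 with iron. Leaving out bts-3 -Fe replicate 1 or 3 gave limma adjusted p values of 0.0177 and 0.00678 for the WT response. Leaving out any other single bts-3 array gave no call (limma adjusted p from 0.0951 to 0.167). Without a WT array, which leaves 1 in its group, the log2 fold change was 5.47 to 5.93. The leaf marker mean also differed between these WT groups (6.81 and 6.41 on WT -Fe, against 8.03 and 7.55 on WT +Fe), and its part in the iron comparisons was not tested.

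In the mutant, MTP8 read 9.48, 8.22 and 5.56 on bts-3 -Fe replicates 1, 2 and 3, against 7.54, 7.07 and 5.37 on bts-3 +Fe. Replicate 3 was low on both media, and the groups overlapped. For 0 of the 4 genes did the bts-3 groups separate, beside 4.98% of all probe sets that separated upward and 3.28% downward. Within replicates the -Fe array was higher by 1.94, 1.15 and 0.19, thus in 3 of 3, as for 17% of all probe sets. The log2 fold change was 1.09 (SE 0.83, 95% interval -0.75 to 2.94, limma adjusted p = 1), and 0.23 without bts-3 -Fe replicate 1 or 2.19 without bts-3 -Fe replicate 3. With the block it kept its size with an SE of 0.29 and a limma adjusted p of 0.261.

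With iron present, the 3 bts-3 arrays lay above both WT arrays, as for 13.5% of all probe sets. Means were 6.66 ± 1.14 in bts-3 (SD, n = 3) and 4.54 ± 0.06 in WT (SD, n = 2). The log2 fold change, 2.12 with an SE of 0.93, had a limma adjusted p of 0.542 in the plain fit and 0.017 with the block, where 1.81% were called. Without both arrays of bts-3 replicate 2 the blocked limma adjusted p was 0.0664. The root hair marker mean was 7.47 to 8.74 in bts-3 and 8.97 to 9.15 in WT on +Fe. Without iron, the 3 bts-3 arrays lay below both WT arrays, as for 11.3% of all probe sets. Means were 7.75 ± 2.00 in bts-3 (SD, n = 3) and 10.24 ± 0.32 in WT (SD, n = 2). The difference of -2.49 on the log2 scale, with an SE of 0.93 and a limma adjusted p of 0.718, was the lowest of all 17481 probe sets. It was -1.39 and ranked 13th lowest without bts-3 -Fe replicate 3, ranked 34th without WT -Fe replicate 2, and was -3.35 without bts-3 -Fe replicate 1.

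The iron response of MTP8 was 1.09 in bts-3 and 5.70 in WT, and their difference was -4.61 (SE 1.32, 95% interval -7.52 to -1.69). Its limma adjusted p was 0.822 in the plain fit and 0.0118 with the bts-3 block, where 0.2% of probe sets were called. With the block and without both arrays of a bts-3 replicate, the difference was -5.03, -4.63 and -4.15 for replicates 1, 2 and 3 left out. The limma adjusted p values were 0.00235, 0.0664 and 0.0094, so the call was lost without replicate 2. Averaged over both genotypes, MTP8 was higher on -Fe by 3.40 (SE 0.66, limma adjusted p = 0.122), and the blocked fit called it (limma adjusted p = 0.000554, where 0.835% were called). In order of means MTP8 ran WT -Fe, bts-3 -Fe, bts-3 +Fe, WT +Fe, and of these neighbours only bts-3 -Fe and bts-3 +Fe overlapped.

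**Figure D1:**
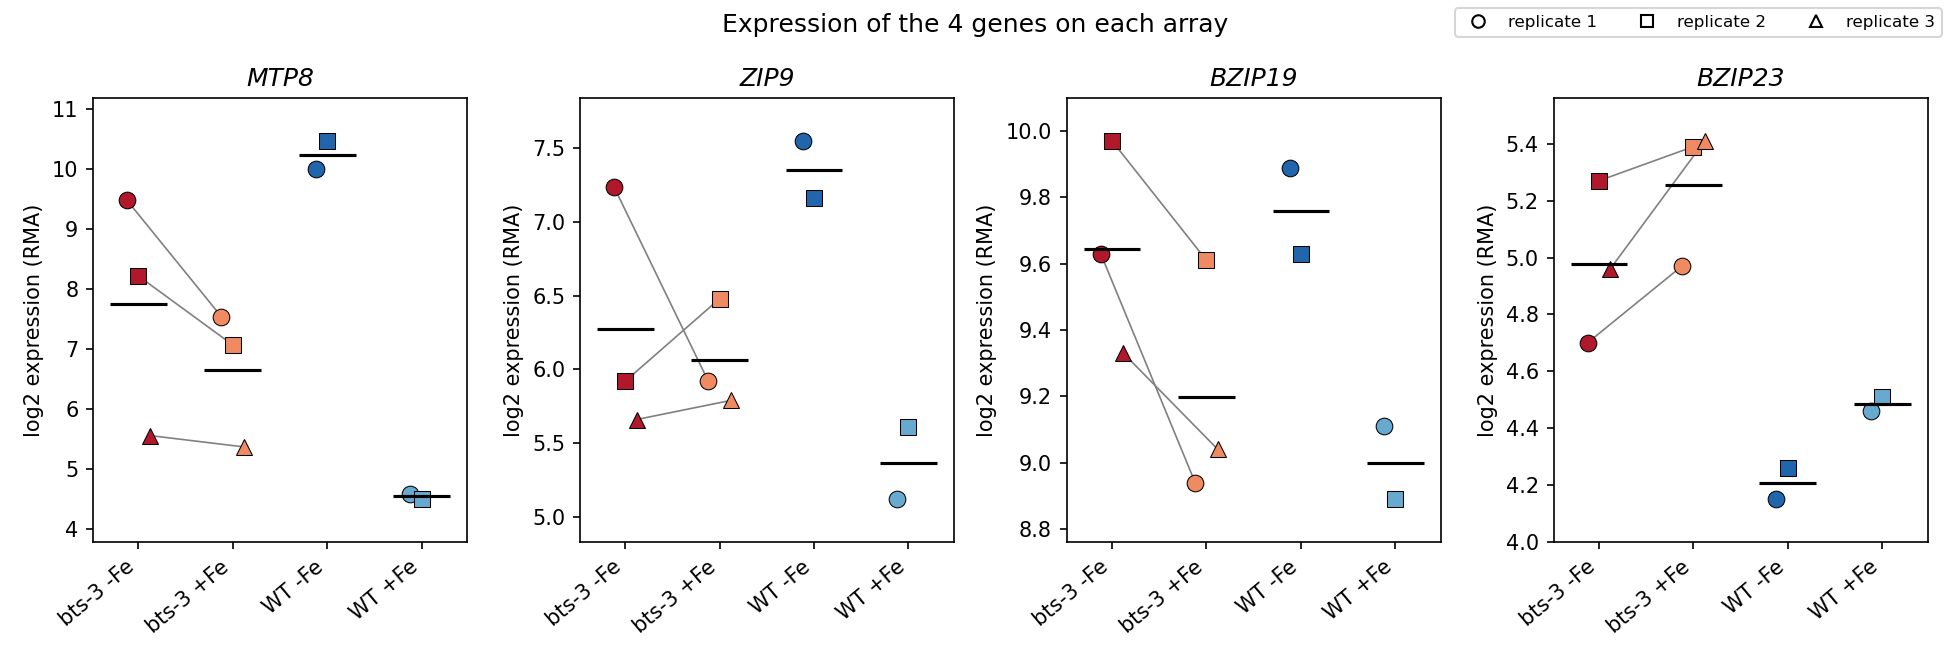
Log2 expression (RMA, vertical axis, a separate scale per gene) of MTP8, ZIP9, BZIP19 and BZIP23 on each array, by group. Symbols mark replicate numbers, black bars are group means and grey lines join the bts-3 arrays of 1 replicate number; MTP8 in bts-3 replicate 3 sits at 5.56 on -Fe and 5.37 on +Fe, near the WT +Fe arrays, and all 6 bts-3 arrays of BZIP23 sit above the 4 WT arrays.

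ZIP9 had the same order of group means as MTP8, over a smaller range. WT -Fe roots read 7.55 and 7.16, against 5.12 and 5.61 in WT +Fe roots. The groups did not overlap, as for 23.2% of all probe sets in this direction. Their log2 fold change was 1.99 (SE 0.45, 95% interval 0.98 to 2.99), a 3.97-fold difference and the 64th highest of 17481. The limma adjusted p was 0.198 with all arrays and 0.0167 without bts-3 -Fe replicate 1. Leaving out any other single bts-3 array gave no call (limma adjusted p from 0.108 to 0.288). Without a WT array, which leaves 1 in its group, the log2 fold change was 1.74 to 2.23.

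In the mutant, ZIP9 read 7.24, 5.92 and 5.66 on bts-3 -Fe replicates 1, 2 and 3, against 5.92, 6.48 and 5.79 on bts-3 +Fe. Only replicate 1 was higher on -Fe, by 1.32, while replicates 2 and 3 differed by -0.56 and -0.13. The mutant's log2 fold change of 0.21 (SE 0.37, 95% interval -0.61 to 1.03, limma adjusted p = 1) was -0.27 without bts-3 -Fe replicate 1. That array is also the one with the lowest correlation to its mates and the lowest leaf marker mean of its group, and the part of either in the ZIP9 value was not tested.

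On +Fe the bts-3 arrays of ZIP9 were all above WT, as for 13.5% of all probe sets. Means were 6.06 ± 0.37 in bts-3 (SD, n = 3) and 5.36 ± 0.35 in WT (SD, n = 2). This difference of 0.70 had an SE of 0.41 and a limma adjusted p of 0.697. On -Fe the groups overlapped through bts-3 replicate 1, with means of 6.27 ± 0.84 in bts-3 and 7.35 ± 0.27 in WT. The log2 fold change was -1.08 (SE 0.41, limma adjusted p = 0.724), and -1.56 without that array (limma adjusted p = 0.089). The iron response was 0.21 in bts-3 and 1.99 in WT, a difference of -1.78 (SE 0.59, 95% interval -3.08 to -0.48, limma adjusted p = 0.872). The bts-3 block left ZIP9 uncalled in every comparison. With that block and without both arrays of replicate 1, the limma adjusted p was 0.00722 for the WT response, 0.032 for bts-3 against WT on -Fe (-1.56) and 0.0319 for the difference of responses (-2.33). Without replicate 2 or 3 instead, the limma adjusted p for the WT response was 0.0866 and 0.102. Replicate 1 was left out after seeing the data and holds the array through which the -Fe groups overlapped. The blocked p for bts-3 against WT is too small, as stated above.

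**Figure D2:**
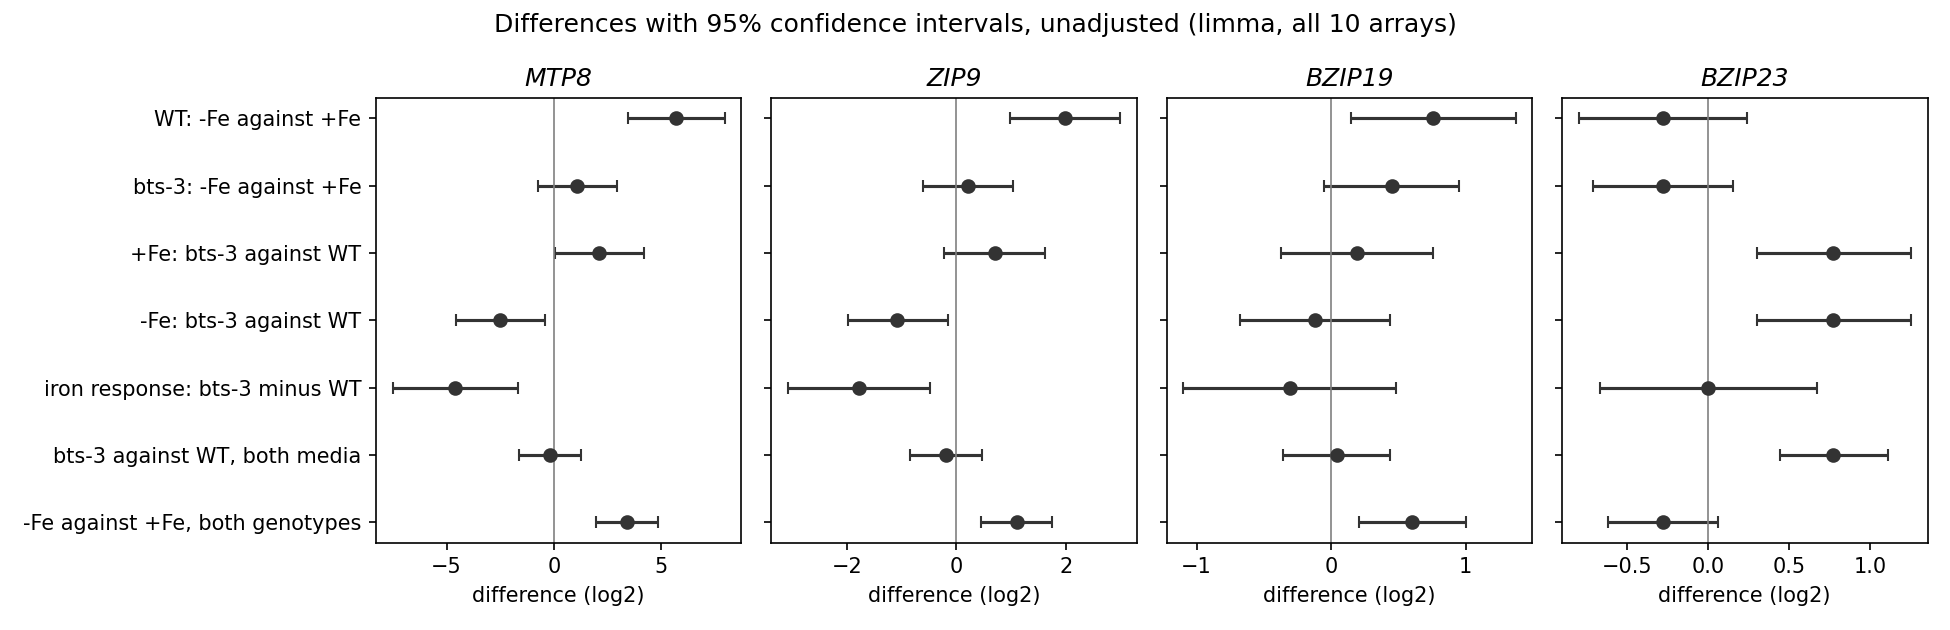
Differences on the log2 scale (horizontal axis, a separate scale per gene) of each gene in the 7 comparisons, as points with unadjusted 95% confidence intervals from limma on all 10 arrays. The iron response of MTP8 is 1.09 in bts-3 and 5.70 in WT and that of ZIP9 0.21 in bts-3 and 1.99 in WT, while BZIP23 has the same bts-3 against WT difference of 0.77 on both media.

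The regulator BZIP19 lay within a narrow band, from 8.89 to 9.97. WT -Fe roots read 9.89 and 9.63, against 9.11 and 8.89 in WT +Fe roots, without overlap, upward as for 23.2% of all probe sets. This was a log2 fold change of 0.76 (SE 0.28, 95% interval 0.15 to 1.37), a 1.69-fold difference (limma adjusted p = 0.484). In bts-3 the arrays read 9.63, 9.97 and 9.33 on -Fe and 8.94, 9.61 and 9.04 on +Fe. The groups overlapped through bts-3 +Fe replicate 2, but within replicates the -Fe array was higher by 0.69, 0.36 and 0.29.

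For BZIP19 the mutant's log2 fold change was 0.45 (SE 0.23, 95% interval -0.05 to 0.95, limma adjusted p = 1). MTP8 and BZIP19 were the members with both separate WT groups and 3 of 3 bts-3 replicates higher on -Fe, a pattern found in 5.42% of all probe sets. Averaged over both genotypes, BZIP19 was higher on -Fe by 0.60 (SE 0.18, limma adjusted p = 0.303). Between genotypes the values overlapped on both media, with log2 fold changes of bts-3 against WT of 0.19 on +Fe (95% interval -0.37 to 0.76) and -0.12 on -Fe (-0.68 to 0.44). The difference of the iron responses was -0.31 (95% interval -1.10 to 0.48).

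BZIP23, the close relative of BZIP19, read higher in bts-3 on both media. The bts-3 arrays read 4.70, 5.27 and 4.96 on -Fe and 4.97, 5.39 and 5.41 on +Fe, against 4.15 and 4.26 in WT -Fe roots and 4.46 and 4.51 in WT +Fe roots. All 6 bts-3 arrays lay above all 4 WT arrays, as for 1.1% of all probe sets. Its levels were near or below the array medians.

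The root hair marker mean also differed between the genotypes (7.47 to 8.74 on the bts-3 arrays and 8.97 to 9.15 on the WT arrays). Its part in the BZIP23 difference was not tested. For BZIP23 the groups also separated on each medium alone, upward as for 13.5% (+Fe) and 8.28% (-Fe) of all probe sets. It was higher in bts-3 than in WT by 0.77 on +Fe and 0.77 on -Fe, on the log2 scale, each with an SE of 0.21 and a 95% interval of 0.30 to 1.25. That is a 1.71-fold difference, with limma adjusted p of 0.213 on +Fe and 0.64 on -Fe. Averaged over both media it was 0.77 (SE 0.15, 95% interval 0.44 to 1.11), with a limma adjusted p of 0.0888. With the bts-3 block that p was 0.0177, where 2.44% of probe sets were called. The call under the block was lost without both arrays of bts-3 replicate 2 (0.0538) or 3 (0.066). No array left out of the plain fit turned the direction, with averages between 0.70 and 0.84. Without bts-3 -Fe replicate 1, the array with the lowest correlation to its mates, the limma adjusted p was 0.0401, beside 0.0888 with all arrays.

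On iron, BZIP23 ran the other way from BZIP19. WT -Fe arrays were below WT +Fe arrays, as for 21.1% of all probe sets, and the bts-3 -Fe minus bts-3 +Fe difference was -0.27, -0.12 and -0.45 within replicates. Separate WT groups with 3 of 3 bts-3 replicates lower on -Fe were found in 3.74% of all probe sets. The log2 fold change was -0.28 in bts-3 (95% interval -0.71 to 0.15) and -0.28 in WT (95% interval -0.80 to 0.24), with a limma adjusted p of 1 in bts-3 and 0.798 in WT. The difference of the responses was 0.00 with a 95% interval of -0.67 to 0.67. In order of means BZIP23 ran bts-3 +Fe, bts-3 -Fe, WT +Fe, WT -Fe, and of these neighbours only bts-3 +Fe and bts-3 -Fe overlapped.

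For the 3 members whose WT -Fe arrays lay above their WT +Fe arrays, and for the measured FIT-dependent iron genes, each bts-3 array was placed between the WT +Fe mean (0%) and the WT -Fe mean (100%) on the log2 scale. MTP8 stood at 86.7%, 64.5% and 17.9% on bts-3 -Fe replicates 1, 2 and 3, and at 52.6%, 44.3% and 14.6% on bts-3 +Fe. ZIP9 stood at 94.3%, 28.1% and 15.2% on bts-3 -Fe and at 28%, 56.2% and 21.6% on bts-3 +Fe. For both transporters replicate 3 was lowest on each medium and replicate 1 highest on -Fe. On +Fe replicate 1 was highest for MTP8 and replicate 2 for ZIP9.

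BZIP19 did not share that order. It stood at 83.5%, 127% and 43.4% on bts-3 -Fe and at -7.74%, 79.7% and 4.76% on bts-3 +Fe, on a WT span of only 0.76. Of 11 FIT-dependent iron loci 3 had annotated single-gene probe sets, 4 in all, with a median WT log2 fold change of 2.79 and none called in the plain fit. Among them BGLU42, a beta-glucosidase acting on coumarins, stood at 88.6%, 73.7% and 14.5% on bts-3 -Fe and at 52.6%, 58.9% and 20.6% on bts-3 +Fe. S8H, an enzyme of fraxetin synthesis, stood at 100%, 85.6% and 26.1% on bts-3 -Fe and at 79.9%, 74.7% and 52.7% on bts-3 +Fe, above MTP8 on every bts-3 array. COSY, a coumarin synthase, has 2 probe sets and stood lower on average than MTP8. On bts-3 -Fe the first stood at 77.5%, 48.9% and -48.8% and the second at 62.8%, 65.2% and -11.6%, and on bts-3 +Fe they stood at 5.58%, 50.2% and -44.2% and at 19%, 26.6% and 15.1%. The log2 difference of bts-3 against WT on +Fe was 0.04 and 0.25 for the COSY probe sets, 1.91 for BGLU42 and 4.27 for S8H. None was called in the plain fit. For the WT response the plain limma adjusted p was 0.116 for S8H and 0.127 for BGLU42, beside 0.113 for MTP8. Replicate 3 also had the lowest root hair marker mean on each bts-3 medium, 8.06 on -Fe and 7.47 on +Fe, and its part in these values was not tested.

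**Figure D3:**
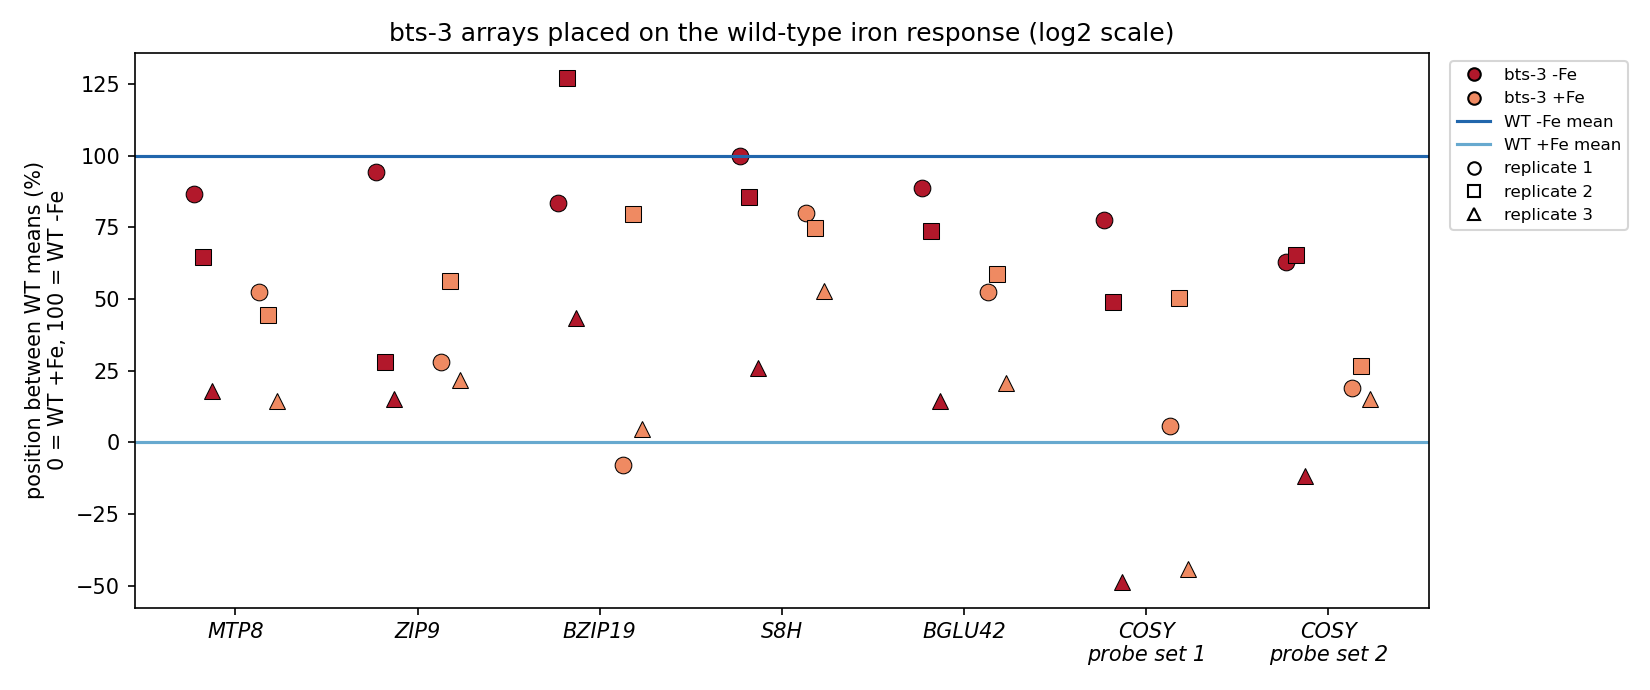
Position of each bts-3 array (vertical axis, percent) between the WT +Fe mean at 0 and the WT -Fe mean at 100, for MTP8, ZIP9, BZIP19 and the iron genes S8H, BGLU42 and COSY (2 probe sets). MTP8 and BGLU42 run from 17.9% and 14.5% on bts-3 -Fe replicate 3 to 86.7% and 88.6% on replicate 1, and COSY lies below 0 on bts-3 -Fe replicate 3 in both probe sets.

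The genes most like each member were those with the highest Pearson correlation of log2 values over the 10 arrays, among 16721 single-gene probe sets. The arrays share groups and replicates, so these values describe shape only. For MTP8 they were AT5G23170 (0.987), BGLU42 (0.985), AT4G09110 (0.982), AT1G01570 (0.978) and AT1G14185 (0.975). Their log2 fold changes in WT on -Fe were 2.40, 4.34, 3.34, 2.13 and 2.63, all below that of MTP8. For ZIP9 they were AT1G15190 (0.972), AT3G26000 (0.96), AT3G42050 (0.957), AT4G26470 (0.956) and AT5G45510 (0.952), with WT log2 fold changes of 0.47, 0.33, 0.24, 1.12 and 1. The genes shaped like ZIP9 had smaller iron responses than ZIP9.

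For BZIP19 the most alike were AT5G21950 (0.93), AT1G32410 (0.929) and AT2G45590 (0.927). For BZIP23 they were rpoA, the chloroplast-encoded alpha subunit of plastid RNA polymerase (0.956), AT5G38210 (0.949) and ATG8B, a ubiquitin-like protein of autophagy (0.948). ATG8B had log2 fold changes of bts-3 against WT of 1.34 on +Fe and 1.07 on -Fe, and rpoA of 0.46 and 0.43.

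No other zinc or manganese gene examined was called in any comparison of the plain fit. In the MTP family 8 of 12 loci had a probe set annotated to them alone, MTP8 included. Many probe sets are unnamed, so other loci may be on the array. The median log2 fold change for WT -Fe against WT +Fe was -0.01, beside 0.01 over all probe sets. MTP9, MTP10 and MTP11 belong with MTP8 to the manganese branch of the family. For MTP9 the means were 6.08 ± 0.09 in iron-starved WT and 6.98 ± 0.11 in WT +Fe (SD, n = 2 each). Its value of -0.90 (SE 0.44) was opposite in sign to MTP8 and had a limma adjusted p of 0.627. MTP11, a manganese transporter of the secretory pathway, had -0.48 (SE 0.25) and MTP10 had 0.05 (SE 0.42).

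For bts-3 against WT, MTP10 had log2 fold changes of -0.78 (SE 0.38) on +Fe and -0.64 (SE 0.38) on -Fe, MTP9 of 0.27 and 0.62, and MTP11 of 0.22 and 0.48. MTP6 had differences between -0.03 and 0.04 in the 4 pairwise comparisons. MTP2, at 1.66 to 2.58, lay below the lower quartile of all 10 arrays, as did the manganese transporter homologue NRAMP5 at 1.82 to 2.78.

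In the ZIP family 2 of 16 loci had an annotated single-gene probe set. ZIP6 had log2 fold changes of -0.17 (SE 0.27) for WT -Fe against WT +Fe and 0.01 (SE 0.22) for bts-3 -Fe against bts-3 +Fe. For the WT response ZIP9 alone of the measured ZIP genes had an unadjusted limma p under 0.05 (0.00122). For the bts-3 response neither had one (unadjusted limma p of 0.583 for ZIP9). Of 22 other transport loci for zinc and manganese 3 had an annotated single-gene probe set, the Golgi transporter PML3, the chloroplast transporter PAM71 and NRAMP5, with WT values of -0.01, -0.21 and -0.19. None of the 9 loci of chelators and their transport was analysed here.

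On the list of group F factors and their targets 5 of 5 loci had an annotated single-gene probe set. The only targets on that list were AT5G33355 and AT3G59930, and ZIP9 was counted with the ZIP family, so targets at large were not covered. BZIP24, the third group F factor and best known from salt stress, averaged 6.10 ± 0.53 on bts-3 +Fe (SD, n = 3) and 6.84 ± 0.13 on WT +Fe (SD, n = 2). The difference of -0.74 (SE 0.30) was opposite in sign to BZIP23 and had a limma adjusted p of 0.487. The defensin-like genes AT5G33355 and AT3G59930, known as zinc-deficiency targets of BZIP19 and BZIP23, had log2 fold changes of bts-3 against WT of 0.73 (SE 0.46) and 0.52 (SE 0.26) on +Fe and of 0.59 (SE 0.46) and 0.21 (SE 0.26) on -Fe. Neither was called in the plain fit, and AT3G59930 lay at 1.76 to 2.75, below the lower quartile on all 10 arrays. The list, which includes BZIP19 and BZIP23 and leaves out ZIP9, had a median for bts-3 against WT of 0.52 on +Fe and 0.21 on -Fe. Each of these medians is the value of AT3G59930 itself. Over all probe sets the median was -0.01 on each medium.

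**Figure D4:**
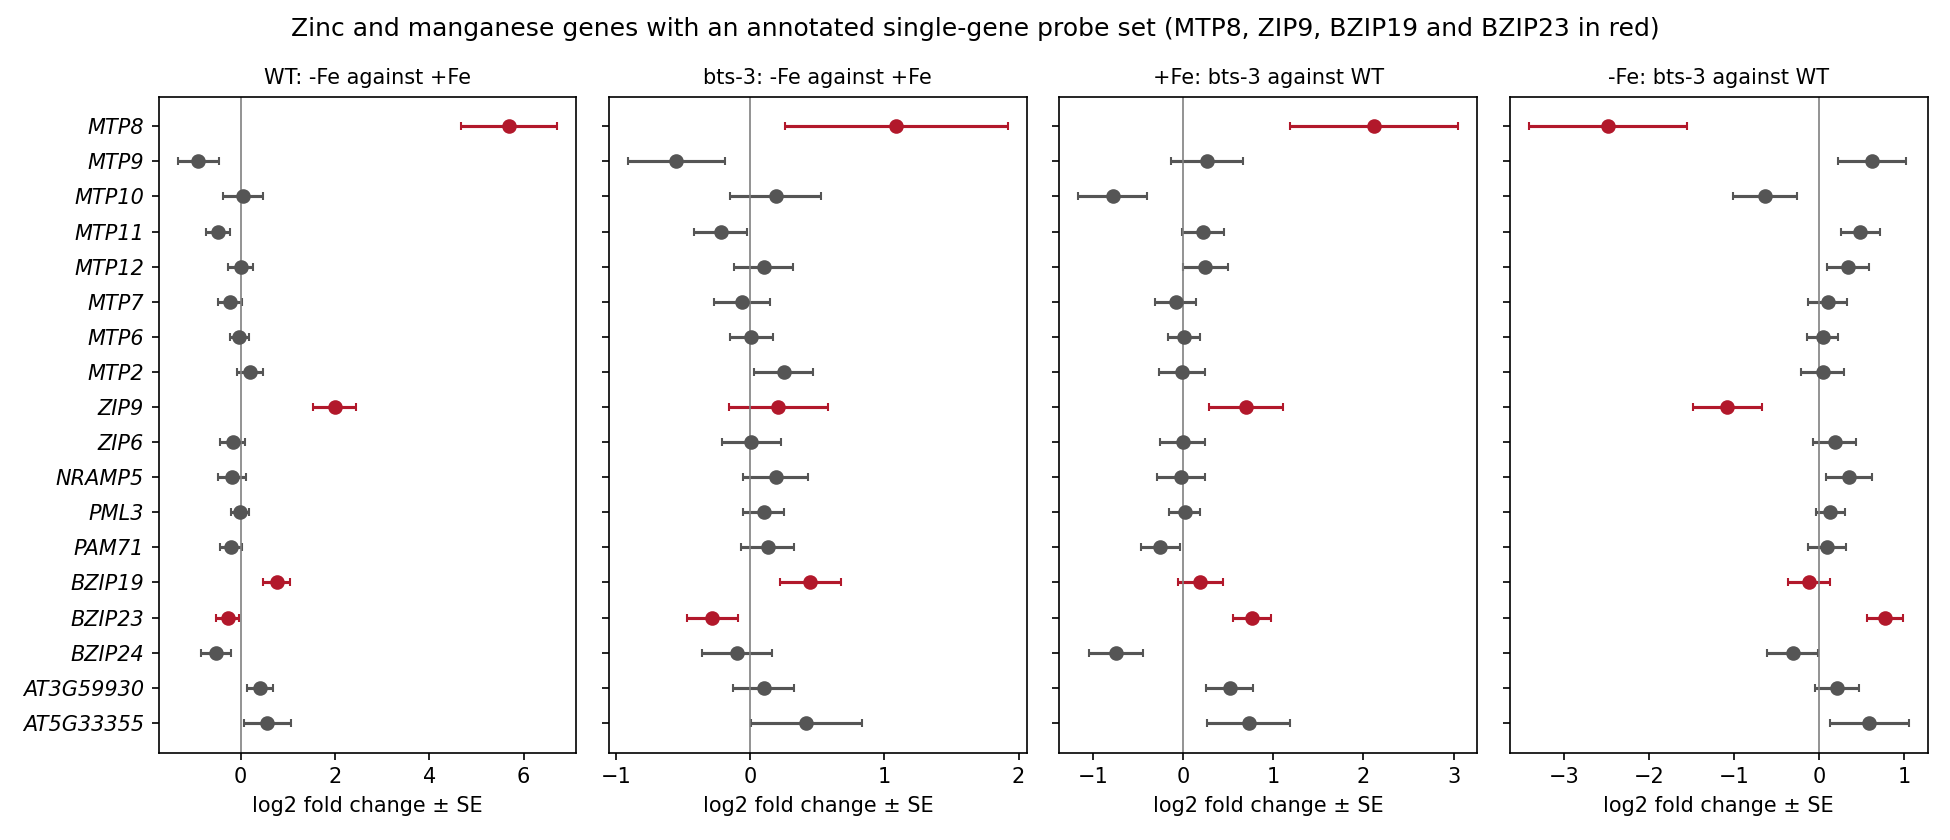
Log2 fold changes with their standard errors (horizontal axis, a separate scale per comparison) of the zinc and manganese genes with an annotated single-gene probe set, members in red. In WT the values of MTP8 (5.70) and ZIP9 (1.99) stand apart from those of the other transporters, which run from -0.90 for MTP9 to 0.20 for MTP2.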

How the data were processed

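Total RNA from roots, 100 ng per array, was labelled for Affymetrix arrays, per the labels' protocols. The deposited values are log2 expression. The submitters' processing notes name RMA and Affymetrix Expression Console. No version, genome build or detection call is given in the sources used here, so no coordinates are printed. The table held 28583 probe sets, of which the platform annotation named 17481, all of them tested with no filter on low values. Of 16722 single-gene probe sets, 16574 matched the RefSeq table of TAIR10.1 by gene ID.

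Group means were fitted with limma 3.58.1 in R 4.3.3 (lmFit, eBayes), with 6 residual and 4.57 prior degrees of freedom. All 7 comparisons were two-sided, with Benjamini-Hochberg adjustment within each. The script was tested on simulated data. Same-numbered bts-3 arrays deviated together from their group means (r = 0.302, 0.511 and 0.389 across genes, unlike numbers -0.292 to -0.113). They were paired on these values and not by the labels. Same-numbered WT arrays did not deviate together (r = -0.107). Alternatives were blocks, other normalizations, filters, array weights, fewer arrays and each array left out.

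The members and lists were chosen with earlier results of these data known. Besides the members, text names list members and, by rule, the 5 (MTP8, ZIP9) or 3 (BZIP19, BZIP23) most correlated genes.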

Additional observations from a re-analysis of the deposited data

How the results depend on the processing

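No member was called in the plain limma fit, and precision is limited by 2 to 3 arrays a group, with no background level given. The block in bts-3 changed no member's call beyond those given beside the results. Crossed WT numbers and left-out bts-3 pairs were chosen after seeing the data, and the cause of the changes below was not tested.

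Called probe sets, in the order plain fit, block over all arrays, block within genotype, block in bts-3 alone and crossed WT numbers, were 5, 80, 64, 106 and 92 for the WT iron response. They were 4, 17, 26, 44 and 35 for the bts-3 iron response, 47, 118, 194, 316 and 273 for bts-3 against WT on +Fe, and 1, 18, 9, 35 and 20 for the difference of responses. Averaged iron gave 16, 78, 74, 146 and 103. The averaged genotype comparison gave 28 in the plain fit and 155, 427 and 362 in the last 3 blocks. Array weights gave 101, 10, 279, 3, 92 and 48 for the WT response, the bts-3 response, +Fe, the difference of responses, and averaged genotype and iron. The arrays of the compared groups alone gave 157, 1 and 101 for the WT response, the bts-3 response and +Fe. Testing all probe sets gave 10, 78, 0 and 47 for the bts-3 response, +Fe, the difference of responses and averaged genotype. Median centring gave 3 for the WT response, and an intensity trend gave 9 there and 7 in bts-3. The difference of responses had 0 under median centring, requantiling, the trend and without the dimmest 25% of probe sets. Leaving out 1 array gave 0 to 88, 1 to 18, 4 to 93, 0 to 8 and 0 to 7 for the WT and bts-3 responses, +Fe, -Fe and the difference of responses, 5 to 99 for averaged genotype and 0 to 98 for averaged iron.

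MTP8 in WT (5.70) was called under all 4 blocks, under array weights, with the WT arrays alone and without each bts-3 pair, with limma adjusted p between 6.74e-05 and 0.017. ZIP9 in WT (1.99) was called under array weights (0.0332), with the WT arrays alone (0.0192) and without bts-3 pair 1. On +Fe, MTP8 was called at 2.99 with the block over all arrays, at 2.12 with the other blocks, and at 1.68 and 2.76 without bts-3 pairs 1 and 3. On -Fe, MTP8 (-3.35) and ZIP9 (-1.56) were called, of the alternatives run, only without pair 1. The difference of responses for MTP8 (-4.61) was called under all 4 blocks, and at -5.03 and -4.15 without pairs 1 and 3, and that for ZIP9 at -2.33 without pair 1. Averaged iron for MTP8 was called at 3.40 under all 4 blocks and at 3.18, 3.38 and 3.62 without pairs 1, 2 and 3. Averaged genotype for BZIP23 was called at 0.77 under 3 blocks, 0.80 under array weights and 0.91 without pair 1, and for MTP8 at -0.84 without pair 1.

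Signs turned as follows. Averaged genotype was 0.68 for MTP8 and 0.03 for ZIP9 with the block over all arrays and without pair 3, and -0.14 for BZIP19 without pair 2. ZIP9 in bts-3 was -0.07 under array weights and -0.34 without pair 1. BZIP19 was -0.01 on +Fe without pair 2, and on -Fe 0.00 with the block over all arrays and 0.04 without pair 3. The BZIP23 difference of responses was -0.02 after requantiling, -0.07 after median centring, and -0.01 and -0.08 without pairs 1 and 2.

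Leaving out 1 array at a time gave 5.47 to 5.93 for MTP8 and 1.74 to 2.23 for ZIP9 in WT, -0.27 to 0.52 for ZIP9 in bts-3, and 2.96 to 3.94 for MTP8 in averaged iron. BZIP19 ran from -0.01 to 0.32 on +Fe and from -0.28 to 0.04 on -Fe, and the BZIP23 difference of responses from -0.15 to 0.14. Averaged genotype ran from -0.62 to 0.36 for MTP8, -0.06 to 0.12 for BZIP19 and 0.70 to 0.84 for BZIP23.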
